A study of Mus musculus with 16 samples.

Results

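Wild-type Arkadia and Arkadia with mutated SUMO-interacting motifs were compared in the same kind of cell, Arkadia-null mouse embryo fibroblasts (MEFs) that had received either form by retrovirus. The comparison rests on 6 of the 16 libraries of the series, chosen by their labels: 3 of null cells with the wild-type form (rvWT) and 3 of null cells with the mutant form (sim). Each line was sampled untreated (0 h) and after 1 h and 4 h of TGFβ at 2.5 ng/ml, so that every rvWT library has a sim library of the same time beside it. Both lines are Ark-/- MEFs infected with a Moloney-derived vector in which the CAG promoter drives Arkadia and, through an internal ribosomal entry site, EGFP (rvCAG-ArkWT or rvCAG-Arksim). The labels state that infection reached most cells and that early passages were taken. Beside them stand 2 libraries of uninfected Ark-/- MEFs of the same set (null, 0 and 1 h). From the other set of the series come 4 libraries of Ark+/+ MEFs (WT) and 4 of Ark-/- MEFs (null, set A), at 0, 1, 4 and 16 h. No library of null cells with an empty vector is used here. Against null, the effects of infection and of Arkadia therefore cannot be told apart, whereas rvWT and sim share the vector.

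Arkadia, encoded by Rnf111, is a RING-type ubiquitin ligase. It is known to mark Ski, SnoN and Smad7, which hold back TGFβ signalling, for degradation by the proteasome, and so to raise the response of SMAD target genes. A SUMO-interacting motif is a short hydrophobic stretch through which a protein binds SUMO, a small ubiquitin-like protein that is itself attached to other proteins, Polycomb components among them. Arkadia carries several such motifs.

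The stretches of Rnf111 that hold the mutated motifs are shown because they are the single designed difference between the lines. They are the wild-type coding sequence from the GENCODE mouse transcripts (GRCm38), 5′ to 3′, with the codons for the residues that the labels give as changed to alanine in capitals. In all, 6 of the 989 codons were changed.
SIM1: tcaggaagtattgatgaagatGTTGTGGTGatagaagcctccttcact
SIM3: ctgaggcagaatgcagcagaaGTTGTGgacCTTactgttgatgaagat
The first covers codons 291 to 306, with V298, V299 and V300 in capitals. The second covers codons 373 to 388, with V380, V381 and L383 in capitals.

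The deposited values are FPKM, in which the authors related fragments to the length of a transcript and to the size of a library. Read counts are not used here, so depth is unknown and precision rests on the scatter between libraries. The FPKM of a library summed to between 435437 and 481970 in the 6 libraries. Small RNA genes, which libraries of poly(A) RNA capture poorly, held 4.98% to 7.24% of it. At 0, 1 and 4 h their share was 6.22%, 6.55% and 6.40% in rvWT and 4.98%, 5.70% and 7.24% in sim. The part of this in the response differences was not tested. With 1 library per line and time, the times of a line are its repeated measurements. Whether the libraries came from separate cultures or infections is not stated in the labels. The p-values therefore reflect only how far these libraries scatter, and that scatter may be technical. Fibroblast markers (11 of 14 analysed here) summed to 4842 to 5356 FPKM in rvWT and 3915 to 4562 in sim. S100a4 and Vim made up most of these sums, so they do not gauge the list as a whole. S100a4 was at 3068, 2717 and 2842 FPKM in rvWT at 0, 1 and 4 h and at 2443, 2595 and 2093 FPKM in sim. In WT cells of the other set it averaged 75.1 FPKM. Vim, the fibroblast intermediate filament protein, stood between 1551 and 1906 FPKM in the 6 libraries. Epithelial and mesothelial markers (12 of 20 analysed) summed to 121.6 to 165.2 FPKM in rvWT and 153.4 to 168.2 in sim. Uninfected null cells held 677.0 to 677.7 FPKM of them. Defining markers of endothelial, haematopoietic and muscle cells such as Pecam1, Ptprc and Myod1 are not among the genes analysed here. The same holds for Pdgfra, Fap and Pdpn of the fibroblast list and for Epcam and Cdh1 of the epithelial list. In bulk RNA, fewer cells of a type and less RNA per cell cannot be told apart.

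Rnf111 mRNA was present in both infected lines well above the wild-type level, and it was higher in rvWT than in sim. At 0, 1 and 4 h it stood at 110.0, 102.5 and 125.8 FPKM in rvWT and at 62.1, 56.0 and 61.1 FPKM in sim. Every rvWT library lay above every sim library. The means were 112.8 ± 11.9 and 59.7 ± 3.30 FPKM (SD, n = 3 each), 7.62 and 4.03 times the WT mean of 14.8 ± 0.306 FPKM (SD, n = 4). Uninfected null cells of the same set stood at 0.526 and 0.435 FPKM. The rvWT minus sim difference was 0.90 ± 0.05 (SE) on the log2(FPKM + 1) scale, with a 95% interval of 0.76 to 1.04 and limma adjusted p = 0.0167. The exact two-sided permutation test of 3 against 3 libraries gave p = 0.1, the smallest it can give. With 1 library left out the difference was between 0.84 and 0.94, and its adjusted p in limma between 0.0403 and 0.122. Because the lines differ in how much Arkadia mRNA they make as well as in the motifs, the mutation and the level of Rnf111 cannot be told apart in any result that follows.

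**Figure D1:**
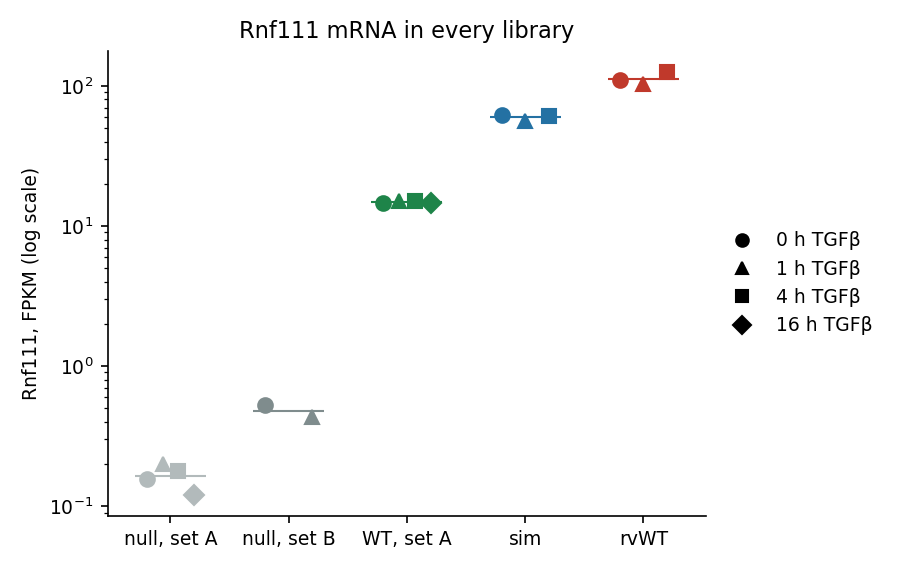
Rnf111 in each of the 16 libraries, as FPKM on a log axis, by group, with the symbol giving the time of TGFβ and the line the group mean. The 3 rvWT libraries sit between 102.5 and 125.8 FPKM, above the 3 sim libraries at 56.0 to 62.1, and both lie above the WT libraries near 14.8.

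Most genes stood at close levels in the lines. A small set differed at all times, among them the proliferin Prl2c2, 3.14-fold higher in rvWT, and the matricellular gene Nov, 2.51-fold higher in sim. Time-matched levels were compared with limma on log2(FPKM + 1), over all genes with a mean of at least 1 FPKM and with time as a block. Of 10958 genes tested 54 passed an adjusted p of 0.05 (0.493%), 15 higher and 39 lower in rvWT than in sim. Unadjusted, 1818 genes had p below 0.05, 863 higher (7.88%) and 955 lower (8.72%) in rvWT. All 54 differed in the same direction at 0, 1 and 4 h. In 34 of them the 3 rvWT values and the 3 sim values did not overlap, against 7.94% of all genes tested. The median difference over all genes was -0.01, the median size of a difference 0.09, and the smallest difference called 0.35. Differences were modest: 6 of the 54 reached 1 on the log2 scale. Among all genes tested 111 reached 1, of which 89 were small RNA genes or genes that fell under 0.1 FPKM in one and reached 5 FPKM in another of the 6 libraries (here called drop-outs). The number of calls rests on the full set of libraries. With 1 library left out it was between 1 (without sim at 0 h) and 10 (without rvWT at 4 h or sim at 4 h). It was 7 in the 6 libraries alone. All 54 kept their direction in each of these fits. They were chosen from the same libraries and had that direction at every time, so this was close to fixed in advance and adds no support.

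**Figure D2:**
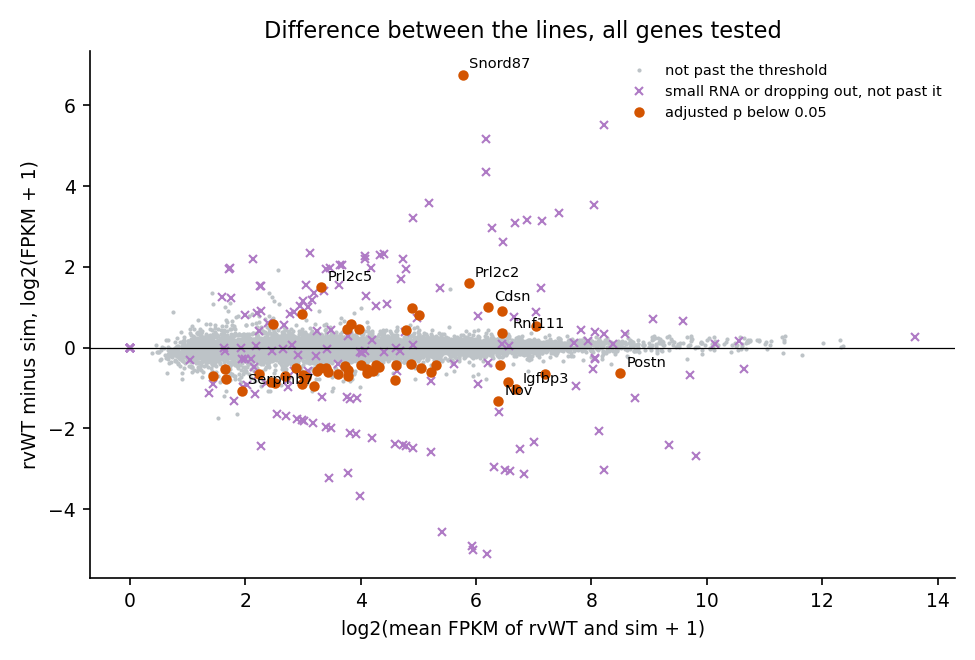
The rvWT minus sim difference on the log2(FPKM + 1) scale (y axis) against the mean level of the lines on the same scale (x axis), 1 point per gene tested. The 54 genes past the threshold are orange, small RNA genes and drop-outs not past it are crosses, and most of the points beyond 1 or below -1 are crosses.

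Among the protein-coding genes that passed and were higher in rvWT, a pair of proliferins had the largest differences on the log2(FPKM + 1) scale. Prl2c2, a prolactin-like proliferin that fibroblasts secrete when they grow, was at 105.4, 87.9 and 68.8 FPKM in rvWT at 0, 1 and 4 h and at 29.4, 28.8 and 25.3 FPKM in sim. All 3 rvWT libraries lay above all 3 sim libraries, 3.14-fold in the means (difference 1.60 ± 0.09 SE, adjusted p = 0.0131). Its close relative Prl2c5 was at 15.4, 13.0 and 12.9 FPKM in rvWT and 4.48, 4.00 and 4.23 FPKM in sim. The groups again did not overlap (1.49 ± 0.06, adjusted p = 0.00528). The transcripts of this pair are 96.64% identical over 834 aligned bases, so their reads may be shared between them and the pair is not a set of independent results. Uninfected null cells of the same set held 15.1 and 15.5 FPKM of Prl2c2, below both infected lines. The level of Prl2c2 also varied within a genotype, at 63.0 ± 45.4 FPKM (SD, n = 4) over the times of the null cells of set A. WT cells of that set held less, 1.57 ± 0.656 FPKM (SD, n = 4). Prl2c5 likewise averaged 0.177 FPKM in WT and 7.88 FPKM in null cells of set A.

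Cdsn, which encodes corneodesmosin, an adhesive protein of the cornified epidermis, was at 101.2, 102.3 and 88.6 FPKM in rvWT and 51.4, 51.1 and 42.9 FPKM in sim. The rvWT libraries were 2.01 times the sim libraries in the mean with no overlap (0.99 ± 0.06, adjusted p = 0.0131). Null cells of the set stood at 1.93 and 2.36 FPKM, so Cdsn was far higher in both infected lines. In set A it went the other way, at 0.862 ± 0.514 FPKM in WT and 3.65 ± 0.324 FPKM in null cells (SD, n = 4 each). Spp1, the secreted matrix phosphoprotein osteopontin, was at 26.7, 23.0 and 66.7 FPKM in rvWT and 13.5, 12.7 and 28.3 FPKM in sim. It rose at 4 h in both lines, and at each time rvWT was the higher line, although the groups overlap across times (0.98 ± 0.08, adjusted p = 0.0234). Igfbp6, a binding protein that prefers the growth factor IGF2, was at 9.36, 9.72 and 8.24 FPKM in rvWT and 5.18, 4.49 and 4.39 FPKM in sim. Its groups did not overlap, and null cells at 5.53 and 5.19 FPKM were close to sim (0.83 ± 0.06, adjusted p = 0.0204).

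Il1rl1, the receptor for interleukin-33, was at 18.7, 19.6 and 80.1 FPKM in rvWT and 9.87, 10.6 and 48.1 FPKM in sim. Like Spp1 it rose at 4 h in both lines and was higher in rvWT at each time (0.81 ± 0.07, adjusted p = 0.0234). The other named genes higher in rvWT differed by 0.35 to 0.58. They were the tRNA methyltransferase Trmt1 (0.58), the surface antigen Psca (0.57), the glutathione transferase Gsto1 (0.54), the secreted angiopoietin-like Angptl2 (0.47), the signalling scaffold Spag9 (0.47), the collagen VI chain Col6a3 (0.44) and the spermidine synthase Srm (0.35). Rnf111 itself was among the 15.

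**Figure D3:**
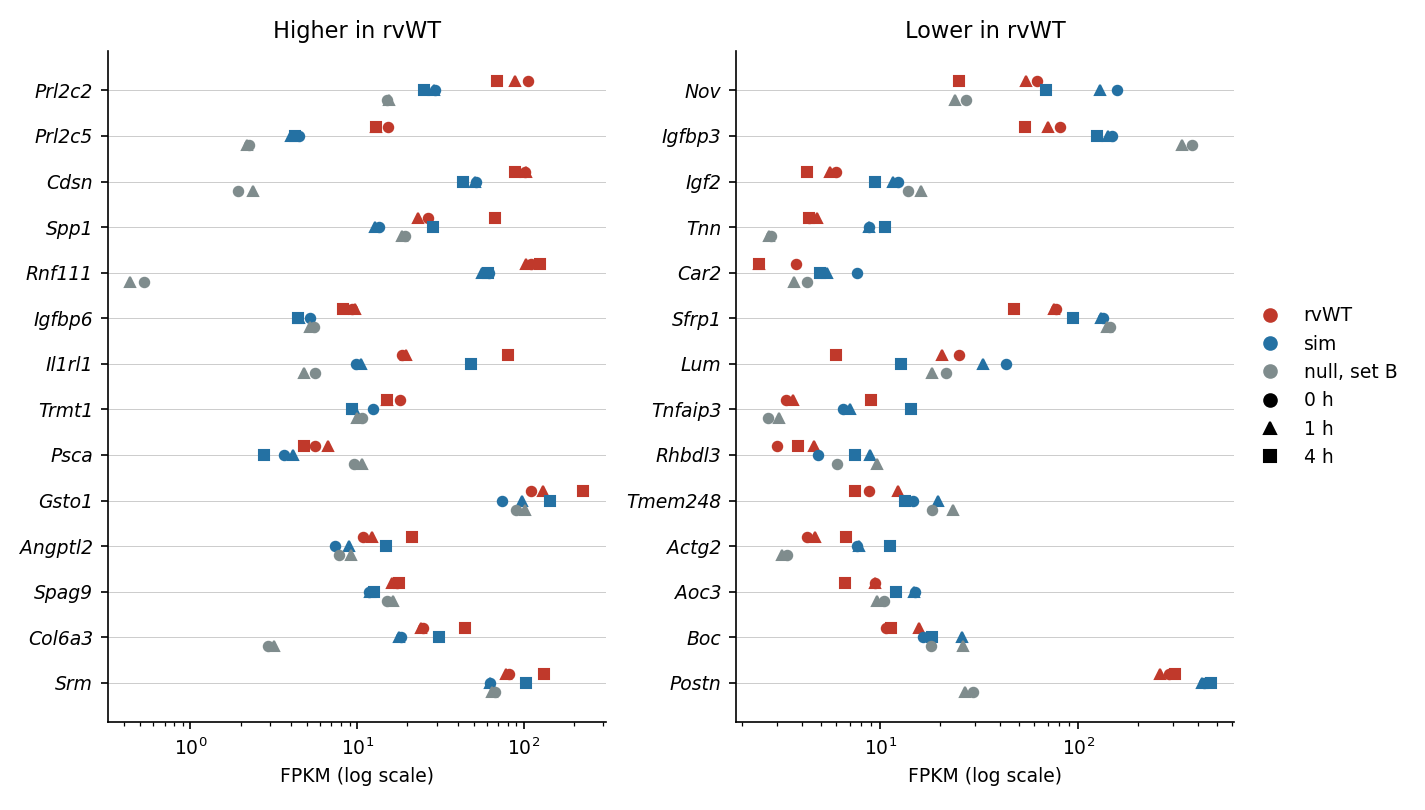
FPKM on a log axis of the named genes higher (left, 14 genes) and lower (right, 14 genes) in rvWT than in sim, 1 symbol per library, with colour for the line and shape for the time of TGFβ. Red and blue symbols separate for genes such as Prl2c2, Cdsn, Nov and Postn, and the grey null symbols lie on either side of them or between them, depending on the gene.

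Genes lower in rvWT included Nov, an insulin-like growth factor (IGF) and one of its carriers. Nov, which encodes the matricellular protein CCN3 of the connective tissue growth factor family, was at 62.1, 54.2 and 24.995 FPKM in rvWT and 157.1, 128.5 and 68.8 FPKM in sim. Every sim library exceeded every rvWT library, and within each line Nov fell at 4 h (difference -1.33 ± 0.05 SE, adjusted p = 0.0046). Igfbp3, the main carrier of IGFs, was at 80.6, 69.9 and 54.1 FPKM in rvWT and 148.2, 140.9 and 124.6 FPKM in sim. There was no overlap, and null cells were higher still, at 374.5 and 332.9 FPKM (-1.02 ± 0.07, adjusted p = 0.0188). Igf2, the imprinted growth factor itself, was at 5.98, 5.59 and 4.27 FPKM in rvWT and 12.3, 11.6 and 9.39 FPKM in sim. The sim libraries lay near the null cells at 13.9 and 16.0 FPKM, and the rvWT libraries below all of them (-0.95 ± 0.07, adjusted p = 0.0204). The binding proteins thus did not move together, since Igfbp6 was higher and Igfbp3 lower in rvWT.

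Several matrix genes were lower in rvWT. Postn, the abundant fasciclin-domain protein periostin, was at 285.7, 257.7 and 306.9 FPKM in rvWT and 429.9, 420.9 and 470.5 FPKM in sim. The groups did not overlap, and both stood far above null cells at 29.2 and 26.6 FPKM (-0.64 ± 0.04, adjusted p = 0.0188). Tnn, a tenascin, was at 4.38, 4.78 and 4.35 FPKM in rvWT and 8.75, 8.79 and 10.5 FPKM in sim (-0.91 ± 0.08, adjusted p = 0.0234). It too was lowest in null cells, at 2.82 and 2.73 FPKM. Lum, the collagen-binding proteoglycan lumican, was at 24.9, 20.4 and 5.98 FPKM in rvWT and 43.1, 33.0 and 12.7 FPKM in sim. It fell at 4 h in both lines, which made the groups overlap, and sim was higher at each time (-0.80 ± 0.07, adjusted p = 0.0234).

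A Wnt antagonist and a Hedgehog co-receptor were lower in rvWT as well. Sfrp1, a secreted antagonist of Wnt ligands, was at 77.0, 75.3 and 47.1 FPKM in rvWT and 133.1, 130.0 and 93.8 FPKM in sim. The sim values at 0 and 1 h were close to those of null cells, 144.5 and 139.5 FPKM, and all rvWT values were lower (-0.85 ± 0.05, adjusted p = 0.0184). Boc, a Hedgehog co-receptor, was at 10.7, 15.6 and 11.3 FPKM in rvWT and 16.4, 26.0 and 18.2 FPKM in sim. Here too sim was near null cells at 18.0 and 26.2 FPKM (-0.64 ± 0.04, adjusted p = 0.0188). The other named genes lower in rvWT were the carbonic anhydrase Car2 (-0.85), the ubiquitin-editing inhibitor of NF-κB signalling Tnfaip3 (-0.74), the rhomboid-family gene Rhbdl3 (-0.71), the membrane protein gene Tmem248 (-0.69), the smooth-muscle actin Actg2 (-0.67) and the amine oxidase Aoc3 (-0.67).

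Small RNA genes gave 2 of the 54 calls. The entry for Mir196a-1, a microRNA gene that lies within a Hox cluster, was at 100.1, 116.9 and 118.0 FPKM in rvWT and 146.1, 212.8 and 177.8 FPKM in sim. The groups did not overlap, and null cells stood at 304.8 and 368.3 FPKM (-0.66 ± 0.07, adjusted p = 0.0469). The mature strand is printed because the gene belongs to the named differences, from RefSeq (GRCm38.p6), 5′ to 3′ with the seed, bases 2 to 8, in capitals.
miR-196a-5p: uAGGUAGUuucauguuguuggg
Libraries of poly(A) RNA do not measure this 22-base strand, so the value is that of longer RNA assigned to the entry. Snord87, a small nucleolar RNA, was at 118.7, 92.4 and 111.9 FPKM in rvWT and listed at 0 in the sim and null libraries of the set. A value of 0 can be a failed estimate in this table, so no fold is given.

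Uninfected null cells show where the differing genes lie when Arkadia is missing, with the caution that this order uses the same rvWT and sim libraries as the calls. The order was taken from the limma fit, which adjusts for time, since null has no 4 h library, and can differ from the order of the means. By it the sim level lay between null and rvWT for 32 of the 54 genes, against 49.5% of all genes tested. This held for 25 of the 39 genes lower in rvWT. Igfbp3, Sfrp1 and Igf2 are examples. The null level lay between the lines for 14, against 13.2% of all genes tested, Igfbp6, Spp1 and Car2 among them. The rvWT level lay between null and sim for 8, against 37.2% of all genes tested, such as Postn, Nov and Tnn. Because the 54 were chosen for a gap between rvWT and sim, nothing is read from these shares.

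Between WT and null cells of set A, which are other libraries, 67.5% of 10976 genes tested passed, 30.1% lower and 37.4% higher in WT. Of the 39 genes lower in rvWT than in sim, 27 (69.2%) were also lower in WT than in null, which is 0.817% of the genes lower in WT. Igfbp3 stood at 2.51 ± 0.743 FPKM in WT and 98.6 ± 18.7 in null cells of set A, and Sfrp1 at 0.204 ± 0.103 and 54.7 ± 17.6 (SD, n = 4 each). Igf2 went the other way, at 37.9 ± 11.4 FPKM in WT and 8.40 ± 4.24 in null. Of the 15 genes higher in rvWT 3, Rnf111, Spp1 and Trmt1, were higher in WT (20% of the 15 and 0.0731% of the genes higher in WT), and 9 were lower in WT. WT and null are separate lines of cells, so these values set the differences beside the wild-type level and do not test the motifs.

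Lists of genes by pathway, chosen with earlier results of these data known, were read for their members' differences. Over all genes tested, 0.493% were called, the median difference was -0.01, and 7.88% were higher and 8.72% lower at an unadjusted p below 0.05. At that share called, a list of this size with no member called is near the background. No member of 23 early TGFβ targets passed in either direction, and the median difference was 0.09. None of 13 BMP and Id targets passed (median -0.17), though 5 were lower in rvWT and 0 higher at an unadjusted p below 0.05. The ligand Bmp4 was at -0.65 ± 0.08 with an adjusted p of 0.058. None of 23 receptors, SMADs and ligands passed (median -0.10), with 5 lower and 1 higher unadjusted. The ligand Tgfb2 was at -0.43 ± 0.07 with adjusted p = 0.0825. Of the 16 Arkadia substrates and ubiquitin regulators tested none passed (median -0.05). Smad7, the inhibitory SMAD, differed by 0.09 ± 0.08 and Ski, the SMAD co-repressor, by 0.00 ± 0.08. These are mRNA values, and Arkadia acts on the proteins.

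Neither the SUMO pathway (0 of 23, median -0.07) nor the Polycomb subunits (0 of 32, median 0.00) had a member that passed. At an unadjusted p below 0.05, 6 SUMO pathway genes were lower in rvWT and 0 higher, against 8.72% and 7.88% of all genes. Of the Polycomb subunits, 1 was lower and 3 were higher at that p. The nearest to passing were the nuclear body protein Sp100 (-0.30, adjusted p = 0.141) and the Polycomb accessory protein Aebp2 (0.22, adjusted p = 0.186). None of 19 Hox genes passed, although 18 of them were lower in rvWT and 7 had an unadjusted p below 0.05 in that direction, where 8.72% of all genes did (median -0.16). Hoxa10 differed by -0.39 and Hoxa5 by -0.37.

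Matrix lists held members of both directions. Of 32 collagens and collagen enzymes 1 was higher in rvWT, Col6a3, and 2 were lower, the fibrillar collagen chain Col11a1 (-0.58) and the fibril-associated Col12a1 (-0.61). Col12a1 was at 30.0, 28.9 and 26.6 FPKM in rvWT and 46.6, 43.9 and 41.9 FPKM in sim, with no overlap. The major chains did not pass, with Col1a1 at 0.10 ± 0.05. Of 29 non-collagen matrix genes Spp1 was higher, Postn and Lum were lower, and 26 did not pass. At an unadjusted p below 0.05, 11 of the 29 were lower and 3 higher, against 8.72% and 7.88% of all genes. Of 22 contractile genes Actg2 was lower, and unadjusted 7 were lower and 1 higher. The myosin light chain Myl9 was at -0.40 ± 0.05 with adjusted p = 0.0725. Of 18 imprinted genes Igf2 was lower, of 21 Wnt pathway genes Sfrp1, of 9 epithelial and mesothelial markers the mesothelial Upk3b (-0.44), and of 2 adipocyte markers the lipase Lpl (-0.41). Upk3b was at 76.5, 73.2 and 65.6 FPKM in rvWT, 103.2, 102.4 and 87.4 FPKM in sim and 489.4 and 484.3 FPKM in null cells. The summed level of the epithelial and mesothelial marker list overlapped between rvWT and sim. Most of its 9 tested members were lower in rvWT (median -0.26), 5 at an unadjusted p below 0.05, against 8.72% of all genes. The 2 members higher in rvWT were the epidermal keratin Krt14 (0.99, adjusted p = 0.0604) and the desmosomal gene Pkp1 (1.09, adjusted p = 0.122). Both were higher at each time, and neither passed. The part of such cells in the other differences was not tested. Among immediate early genes none of 26 passed (median 0.17), with 10 higher in rvWT at an unadjusted p below 0.05, where 7.88% of all genes were. Fosl1, an AP-1 subunit, was at 4.94, 13.5 and 37.7 FPKM in rvWT and 3.01, 6.96 and 16.2 FPKM in sim (0.87 ± 0.13, adjusted p = 0.0825). None of 28 hypoxia and glycolysis genes passed (median 0.11, 8 higher unadjusted against 7.88% of all genes). The same held for 24 cholesterol synthesis genes (median -0.13, 8 lower unadjusted against 8.72%). No member of 32 interferon response genes passed (median -0.15), with 10 lower and 3 higher unadjusted. Of 36 cell cycle genes none passed (median 0.04), with 5 higher and 1 lower unadjusted. Of 10 fibroblast markers none passed either (median 0.11), with 5 higher and 1 lower unadjusted, against 7.88% and 8.72% of all genes.

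**Figure D4:**
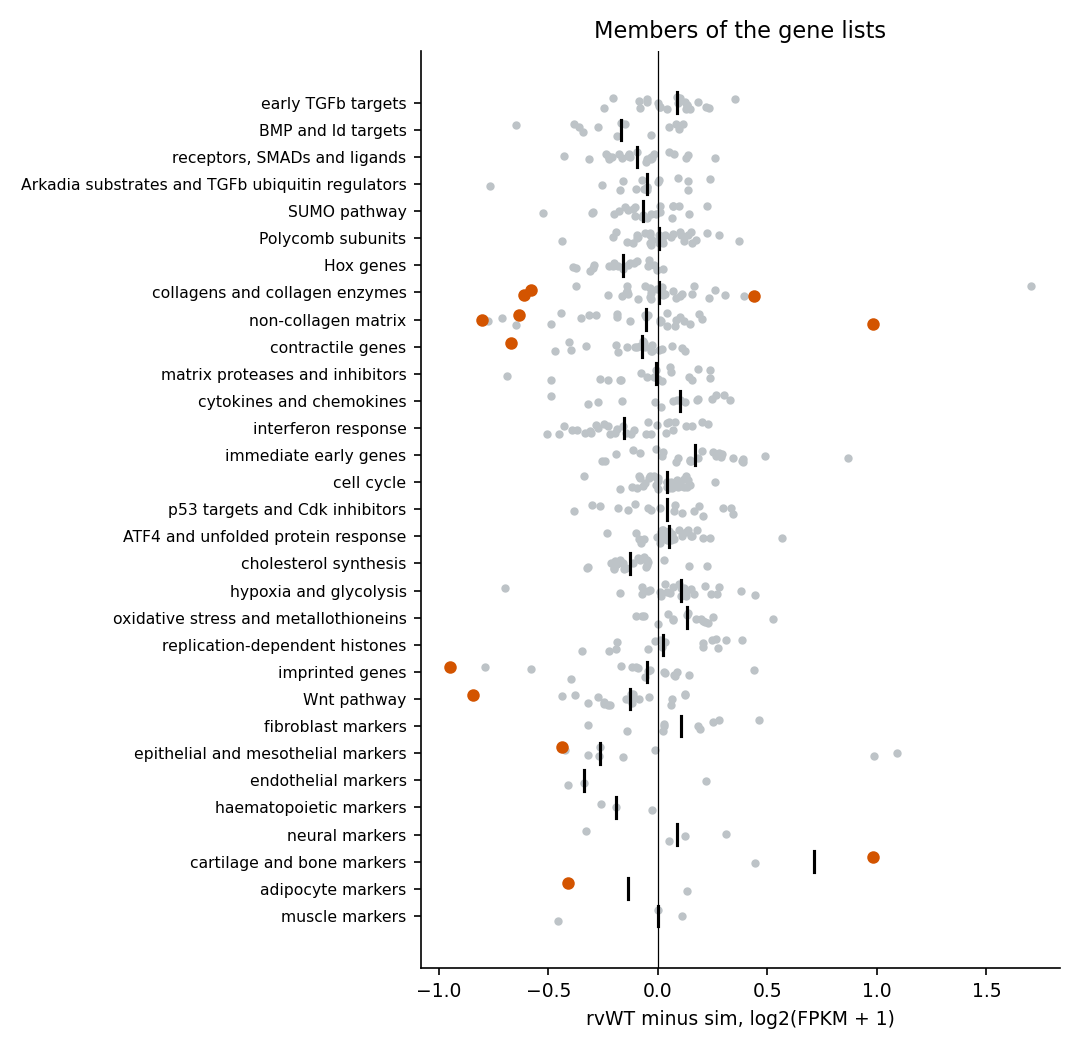
The rvWT minus sim difference on the log2(FPKM + 1) scale of each tested member of the 31 gene lists, with a bar at the median of the list and members past the threshold in orange. Most lists centre near 0, and the orange members of the matrix lists lie on both sides.

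The TGFβ response was first estimated as 1 change common to the lines, which the fit assumes and does not test. With both lines and the null cells of the same set in it, 461 genes (4.21%) changed at 1 h, 372 up (3.39%) and 89 down (0.812%). At 4 h 4266 genes (38.9%) changed, 1398 up (12.8%) and 2868 down (26.2%). None of the 16 libraries was untreated at 1 h or 4 h. TGFβ and the time or handling of the cultures therefore cannot be told apart in these changes, here called the TGFβ response. With 1 library left out the 1 h count fell to between 114 and 212 without a 0 h or 1 h library of rvWT, sim or null, and was 385 or 389 without rvWT or sim at 4 h. The 4 h count was 1706 without rvWT at 0 h, 2030 without rvWT at 4 h and 2123 without sim at 0 h, and between 2966 and 4305 without any other library. Of the 23 early TGFβ targets 16 rose at 1 h, and at 4 h 20 rose and 1 fell. Immediate early genes rose in 12 of 26 cases at 1 h and 21 at 4 h. Smad7 went from 4.14 to 22.7 and 12.0 FPKM in rvWT, and from 4.05 to 20.8 and 10.8 FPKM in sim. The difference in its 1 h rise was 0.10 on the log2(FPKM + 1) scale, with an interval of -0.44 to 0.63, which leaves room for a change of either sign. Snai1, a transcription factor of epithelial-mesenchymal transition, peaked at 1 h in both lines, from 24.8 to 180.6 FPKM in rvWT and from 21.3 to 179.9 FPKM in sim.

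Ctgf, the matricellular CCN2, climbed further at 4 h in both lines, to 653.8 FPKM in rvWT and 591.6 FPKM in sim. All 4 Id genes, known targets of BMP-type SMADs, rose at 1 h, and at 4 h 3 of them, Id2, Id3 and Id4, were below their 0 h level, while Id1 did not pass (-0.39, limma adjusted p = 0.143). Id2 went from 24.5 to 84.0 and 3.86 FPKM in rvWT and from 29.4 to 101.2 and 5.93 FPKM in sim. Among genes that fell at 1 h, the protease Adamts1 went from 156.3 to 23.8 FPKM in rvWT and from 156.8 to 26.2 FPKM in sim. The chemokine Cxcl1 went from 12.7 to 0.762 FPKM in rvWT and from 19.1 to 0.653 FPKM in sim. Kctd11, an adaptor of a ubiquitin ligase, had one of the larger gaps among induced genes at 4 h, 91.0 FPKM in rvWT and 48.6 in sim. Its rise differed by 0.65 with an interval of -1.17 to 2.47 and did not pass. Hbegf, an EGF receptor ligand, reached 123.7 FPKM in rvWT and 79.2 in sim at 4 h (difference of the rises 0.37, interval -1.68 to 2.43). Across 7945 genes with a mean of at least 5 FPKM, without small RNA genes and drop-outs, the rises of rvWT and sim had a Pearson r of 0.671 and a Spearman rho of 0.328 at 1 h. At 4 h they were 0.819 and 0.773. The slope of the sim rise on the rvWT rise, through 0, was 0.697 at 1 h and 0.713 at 4 h, and the slope of the rvWT rise on the sim rise was 0.641 and 0.942. Scatter in either line lowers the slope on it, so no size of response is read from these slopes. Genes are not independent replicates, so these are descriptions. In 38 of these genes the rises differed by 1 or more at 1 h, and in 70 at 4 h.

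**Figure D5:**
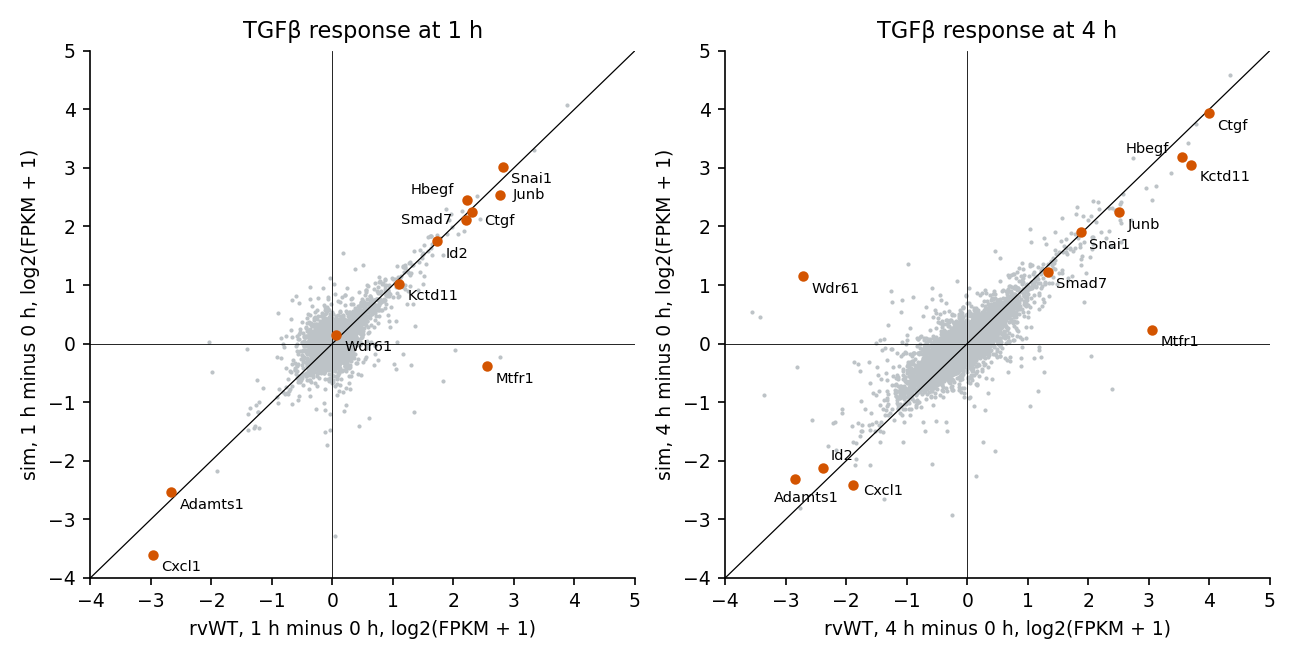
Change at 1 h (left) and 4 h (right) of TGFβ in rvWT (x axis) and sim (y axis) on the log2(FPKM + 1) scale, 1 point per gene of 7945, with named genes in orange and the line of equality. Induced genes such as Ctgf and Snai1 and repressed genes such as Adamts1 lie close to the line, while Mtfr1 and, at 4 h, Wdr61 lie far from it.

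Whether the response itself differed was tested with separate terms for rvWT and sim at 1 and 4 h, in a fit of all 16 libraries. These terms match the rvWT and sim libraries exactly, so the spread behind each p-value and interval comes from the WT and null libraries alone. Of 11045 genes tested 15 passed at 1 h (0.136%) and 23 at 4 h (0.208%), 30 genes in all, and 515 and 704 had an unadjusted p below 0.05. None of the 30 was among the 54 genes whose level differed. No early TGFβ target, BMP target, receptor or SMAD passed at either time. Many of the 30 were uncertain entries. At 1 h 4 were small RNA genes and 5 more drop-outs, and at 4 h 8 and 6. Eif4a1, a translation initiation factor that every cell uses, was listed at 0, 0 and 685.2 FPKM in rvWT and at 550.4, 0 and 0 in sim. With small RNA genes and drop-outs left out 1 gene passed at 1 h and 7 at 4 h.

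Several response differences that passed turned on 1 library of one line. Mtfr1, a mitochondrial protein, was at 1.25, 12.2 and 17.6 FPKM in rvWT and 14.0, 10.5 and 16.7 FPKM in sim. The rvWT library at 0 h stands apart from the other 5 (difference of the rises 2.94 at 1 h, limma adjusted p = 0.0172, and 2.81 at 4 h). Wdr61, a subunit of the PAF1 elongation complex, was at 41.2, 42.8 and 5.44 FPKM in rvWT and 18.2, 20.2 and 41.6 FPKM in sim. Here the rvWT library at 4 h is the low one (-3.86 at 4 h, adjusted p = 0.00131). Uchl5, a deubiquitinase of the proteasome and the sole member of the Arkadia list to pass, was at 2.37, 10.9 and 6.598 FPKM in rvWT and 15.05, 9.35 and 8.10 FPKM in sim. Its rvWT library at 0 h is the low one, and its response differed by 2.46 at 1 h (adjusted p = 0.0299) and 1.99 at 4 h (adjusted p = 0.0350). Oaz1, the antizyme that restrains polyamine synthesis, moved in opposite directions without reaching low values, at 183.7, 164.8 and 86.0 FPKM in rvWT and 112.5, 151.2 and 190.1 FPKM in sim (-1.84 at 4 h, adjusted p = 0.0419). Each line has 1 library per time, so a difference that rests on a single library has no replicate behind it.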

How the data were processed

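RNA of MEFs was sequenced from stranded poly(A) libraries, per the labels' protocols. The authors deposited 1 table of FPKM for 12100 genes. CASAVA 1.8.2, STAR 2.3.0e, SAMtools, Cufflinks 2.2.1 and genome build mm9 are named in the submitters' processing notes, without roles. Each gene has 1 row with 1 RefSeq transcript accession, per the file headers and rows, so a value may be that of 1 isoform. How multiply mapped reads were handled is not stated in what was used here. No counts could be had, so depth is unknown and no counting interval is given.

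From these values log2(FPKM + 1) was tested with limma 3.58.1 in R 4.3.3 (limma-trend, Benjamini-Hochberg over all genes tested, adjusted p below 0.05, mean of at least 1 FPKM). This scale understates the change of low genes. The level was fitted over the 8 libraries of set B as line plus time, which left 3 residual degrees of freedom. The response difference was fitted over the 16 libraries with 4 residual degrees of freedom, all from WT and null libraries. The fits were tested on simulated data first. Sequences were read with Biopython 1.88. The comparison, the 31 gene lists and the rules were chosen with earlier results of these data known. Named genes were the 15 largest differences each way among genes that passed, reached 5 FPKM and kept 1 direction at all times, up to 2 small RNA genes each way, up to 4 members of each list by p, the 8 largest response differences and the 8 largest shared responses each way. A gene named outside this rule, such as Ski, Smad7, Id1, Xist, Col1a1, Prl2c1 or Prl2c4, was chosen after its values were seen. The alternatives changed the pseudocount (0.1 or 5), the filter, the scaling, the variance model, the samples and the time block, and left out each library. Some genes that met the naming rule are not reported here.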

Additional observations from a re-analysis of the deposited data

Results flagged for a closer look

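A response to TGFβ that differed between rvWT and sim by the test of the difference itself was taken as a result for a closer look. At 1 h the response of rvWT exceeded that of sim, on the log2(FPKM + 1) scale, by 9.11 for Eif4a1, 2.94 for Mtfr1, 2.52 for the entry listed as ROSA)26Sor, 2.46 for Uchl5, 2.29 for Bclaf1, 1.74 for Creb1 and 1.49 for Nrf1. It was below that of sim at 1 h for Cox18 (-5.19), Zfand2b (-3.70), Tcn2 (-2.79) and Prpsap2 (-1.41). At 4 h it was above for Eif4a1 (18.5), Trex1 (3.89), 9930012K11Rik (3.52), Mtfr1 (2.81) and Uchl5 (1.99). At 4 h it was below for Tcn2 (-3.98), Wdr61 (-3.86), Zfand2b (-3.30), Hnrnpa3 (-2.48), Odf2l (-2.20), Prpsap2 (-1.96), Oaz1 (-1.84) and Usmg5 (-1.54).

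Several of these rest on a library in which the gene is listed near 0. Cox18 was at 0.00340 FPKM in sim at 0 h and at 11.8 FPKM in rvWT at 0 h. Zfand2b was at 0.0733 FPKM in sim at 0 h and between 7.13 and 11.0 FPKM in the other libraries of the pair of lines. Trex1 was at 0.0176 FPKM in rvWT at 0 h and between 8.33 and 13.0 FPKM in the others. Bclaf1 was listed at 0 in sim at 1 h. Usmg5, a mitochondrial protein gene, and Oaz1 had no low value, and both moved down in rvWT and up in sim. Usmg5 was at 247.9, 227.0 and 164.5 FPKM in rvWT and 126.1, 195.0 and 244.3 FPKM in sim.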

How the results depend on the processing

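The number of genes called different in level was within 1.5 times of 54 with either pseudocount, with no filter or a higher one, with median-ratio or quantile scaling and without the variance trend, between 47 and 65. It was 84 without small RNA genes (62 lower) and 108 also without drop-outs (31 higher, 77 lower), an alternative chosen after seeing the data. Leaving time, which pairs the libraries, out as a block gave 7 (5 higher, 2 lower), the 6 libraries alone gave 7 (5 and 2), and an added log2 threshold of 1 gave 6 (3 and 3). With 1 library left out it ran from 1 to 10, with 1 to 6 higher and 0 to 5 lower in rvWT. The 0 came without the sim 0 h library, where limma gave 1213 genes in both directions at an unadjusted p below 0.05. All of the 54 that were tested kept their direction in every one of these fits, and all but the fit without the time block kept each at an unadjusted p below 0.05, where 39 did. The 54 were chosen from these same libraries, so neither result adds support. The Rnf111 difference ran from 0.84 to 0.94 with 1 library left out, and was 0.90 with adjusted p = 0.0777 in the 6 libraries. Genes called different in their response went from 15 to 1 at 1 h and from 23 to 13 at 4 h with a pseudocount of 5. A pseudocount of 0.1 gave 37 at 4 h. Without small RNA genes 15 were called at 4 h, and without drop-outs too 1 and 7. With 1 library of WT or null left out they ran from 3 to 12 at 1 h and from 12 to 23 at 4 h. Without an rvWT or sim library, the difference at its time (at both times for 0 h) could not be computed. Shared responses ran from 114 to 389 at 1 h and from 1706 to 4305 at 4 h with 1 library left out, and were 223 at 1 h in the 6 libraries. The difference of Ski, 0.00 with all libraries, ran from -0.081 (without rvWT at 1 h) to 0.084, and was -0.03 without sim at 0 h or 1 h. That of Xist, -0.05 with all, ran from -0.25 to 0.15, the latter without rvWT or sim at 4 h. For these alternatives the cause was not tested.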

Other observations

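Genes past the threshold that the naming rule left out were looked at after their values were seen. Lrrn4, a surface protein of mesothelial cells, was at 15.1, 14.6 and 9.70 FPKM in rvWT at 0, 1 and 4 h, at 22.8, 21.0 and 14.7 FPKM in sim and at 85.1 and 84.8 FPKM in null cells (rvWT minus sim -0.54, adjusted p = 0.021). Npnt, a basement membrane protein, was at 7.51, 7.91 and 7.33 FPKM in rvWT, 13.4, 12.6 and 10.4 FPKM in sim and 61.0 and 60.4 FPKM in null cells (-0.61, adjusted p = 0.0444). The mesothelial markers Msln (-0.26 ± 0.04 SE, adjusted p = 0.0785) and Wt1 (-0.42 ± 0.09, adjusted p = 0.143) did not pass.

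Signalling genes outside the rule were lower in rvWT too. The growth factor Fgf18 was at 8.63, 13.7 and 7.97 FPKM in rvWT, 13.2, 21.3 and 11.5 FPKM in sim and 61.5 and 87.9 FPKM in null cells (-0.55, adjusted p = 0.0247). The axon guidance ligand Slit2 was at 35.6, 36.4 and 26.2 FPKM in rvWT and 48.4, 48.7 and 35.4 FPKM in sim (-0.42, adjusted p = 0.0234). Serpinb7, a serine protease inhibitor of low level, was at 1.52, 1.37 and 1.55 FPKM in rvWT and 4.09, 3.89 and 4.61 FPKM in sim, with null cells at 1.44 and 1.66 FPKM (-1.07, adjusted p = 0.0188).

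Other proliferins did not pass. Prl2c4 was at 87.4, 73.4 and 44.9 FPKM in rvWT and 25.6, 24.8 and 20.4 FPKM in sim (1.45, adjusted p = 0.0979), and Prl2c1 at 4.58, 3.42 and 1.71 FPKM against 1.01, 1.14 and 0.967 FPKM (1.00, adjusted p = 0.125). The epidermal keratin Krt14 was at 4.33, 13.2 and 45.3 FPKM in rvWT and 2.33, 5.31 and 20.5 FPKM in sim (0.99, adjusted p = 0.0604).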
